A study of Mus musculus with 6 samples.

Results

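The transcripts of 7 intermediate filament genes were followed in mouse embryonic stem cells (mESCs) grown in 2 media. The genes were the type II keratins Krt7 and Krt8, the type I keratins Krt17, Krt18 and Krt19, vimentin (Vim) and nestin (Nes), named as a set and found by symbol among 53390 annotated genes with values in the deposited tables. RNA was read by poly(A)-selected, strand-specific sequencing in 3 TKO-2i and 3 TKO-serum libraries, each made from 500 ng of RNA. All 6 libraries came from 1 line of cells, TKO, which is Dnmt1-/-, Dnmt3a-/- and Dnmt3b-/- and so lacks functional DNA methyltransferases; it goes back to male J1 mESCs of the 129S4/SvJae strain and was grown without feeder cells on gelatin. The TKO-serum cells were kept in DMEM with 15% fetal calf serum and LIF at 500 U/ml. The TKO-2i cells were kept for 14 days in serum-free N2B27 medium that held 1000 U/ml of LIF, 1 µM of PD0325901, which inhibits MEK, and 3 µM of CHIR99021, which inhibits GSK3. Serum, basal medium, LIF dose and both inhibitors therefore changed together and cannot be told apart. The labels number the libraries of a medium as biological replicates and do not say whether these were separate cultures, so the p-values measure the spread between these libraries, which may be technical.

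Intermediate filaments are rope-like polymers that give cells and nuclei their mechanical strength, and the family member a cell makes depends on its type. Keratin filaments are built from pairs of an acidic type I and a basic type II chain, and a chain without a partner is degraded. Krt8 and Krt18 form the pair of simple epithelia and are among the earliest keratins of the embryo, Vim is typical of mesenchyme and of cells in culture, and Nes, which needs a partner such as vimentin to polymerise, is known from neural progenitors.

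The estimated counts of the TKO-2i libraries summed to 46228700, 44180642 and 43896549 in replicates 1, 2 and 3. Those of the TKO-serum libraries summed to 38274042, 51932739 and 44827609. With these totals, a gene with 3 counts had a CPM (its count relative to the normalised library size) between 0.0564 and 0.0778, and intervals or floors of this kind cover counting error only. TKO-2i replicate 2 stood apart from the other libraries of its medium. The chi-square per gene, which grows as counts differ beyond sampling noise, between its counts and those of replicates 1 and 3 was 47.6 and 28.9, against 7.50 between replicates 1 and 3, while in TKO-serum it lay between 4.88 and 16.1. Levels of different genes are compared below as TPM, the abundance of a transcript relative to all others and scaled for its length, and fold changes come from counts.

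Markers of mESCs were present in every library, as the label says. The pluripotency factor Pou5f1 stood at 1057, 982 and 1012 TPM in TKO-2i and at 1249, 1249 and 1253 TPM in TKO-serum. All 9 mESC markers examined were expressed in every library, the most abundant being Dppa5a, with means of 2274 and 2659 TPM in TKO-2i and TKO-serum. Of these markers, Tfcp2l1, Nanog and Esrrb rose in 2i (log2 fold changes 1.96, 0.60 and 0.33), Sox2, Zfp42 and Tdgf1 fell (-0.41, -0.40 and -0.23) and 3 did not pass the test described below. Transcripts of the disrupted genes were still counted. Dnmt1 had 29.1, 34.6 and 29.3 TPM in TKO-2i and 25.7, 28.6 and 27.9 TPM in TKO-serum. The other two were lower in every TKO-2i library, Dnmt3a with 4.31, 5.19 and 4.54 TPM against 21.3, 23.0 and 22.8 TPM, and Dnmt3b with 6.71, 9.53 and 8.49 TPM against 18.8, 20.9 and 20.7 TPM. These sums do not separate the deleted exons from the others and so do not check the genotype.

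All 7 genes passed the filter on low counts. Each differed between the media at an adjusted p under 0.05 (edgeR quasi-likelihood test with Benjamini-Hochberg adjustment over the 18177 genes tested), in a comparison in which 62.5% of all tested genes did so. For each of the 7, the CPM values of the 3 TKO-2i libraries also lay apart from those of the 3 TKO-serum libraries, as they did for 67.5% of tested genes. Krt8, Vim and Nes were higher in TKO-2i, a direction taken by 31.9% of tested genes, and Krt7, Krt17, Krt18 and Krt19 were lower, as were 30.6% of tested genes. Without TKO-2i replicate 2, 12568 genes were called in place of 11361, all 7 among them, with log2 fold changes of 1.88 for Krt8, 0.79 for Vim, 0.51 for Nes, -0.93 for Krt18, -1.37 for Krt19, -1.60 for Krt7 and -2.61 for Krt17. The median log2 fold change of the 7 was -0.97, against 0.01 over all tested genes, and the median of its size without sign was 1.54, against 0.44. In RNA from whole cultures, fewer cells of a type and less RNA per cell cannot be told apart.

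Krt8, the type II chain of simple epithelial filaments, had 44.2, 41.3 and 44.3 TPM in TKO-2i replicates 1, 2 and 3. In TKO-serum it had 13.8, 13.5 and 13.6 TPM. Every TKO-2i library was far above every TKO-serum library, and the libraries of one medium lay close together. Its mean CPM was 82.6 ± 10.1 with 2i and 24.2 ± 1.6 with serum (SD, n = 3), a log2 fold change of 1.78 (SE 0.10, adjusted p = 1.3e-06 in edgeR), or 3.42-fold.

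Krt18, the type I chain that pairs with Krt8, moved the other way. It had 5.92, 5.92 and 5.41 TPM in TKO-2i and 11.8, 12.9 and 11.6 TPM in TKO-serum. All TKO-2i libraries were low and all TKO-serum libraries high, without overlap. The mean fell from 15.4 ± 0.65 to 7.85 ± 0.53 CPM (SD, n = 3), a log2 fold change of -0.97 (SE 0.08, adjusted p = 1.1e-05 in edgeR).

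The RNA of the pair was thus close to even in serum and uneven in 2i. Per length, there were 1.17, 1.05 and 1.17 Krt8 transcripts for each Krt18 transcript in TKO-serum replicates 1, 2 and 3. In TKO-2i this ratio was 7.47, 6.98 and 8.18. All 3 libraries in 2i were above all 3 in serum (means 7.54 ± 0.60 and 1.13 ± 0.074, SD, n = 3; exact two-sided permutation p = 0.1, the smallest that 3 against 3 libraries allow). Protein was not measured in these libraries, so the ratio is one of transcripts.

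Krt17, a type I keratin of basal cells and of skin appendages that is induced in wounded skin, showed the largest fall of the 7. It had 4.23, 3.95 and 4.13 TPM in TKO-2i, against 30.4, 29.2 and 29.9 TPM in TKO-serum. The TKO-serum libraries stood several-fold above the TKO-2i libraries, with little spread in either medium. Its mean fell from 39.1 ± 2.9 to 5.90 ± 0.84 CPM (SD, n = 3), a log2 fold change of -2.73 (SE 0.11, adjusted p = 2.4e-07 in edgeR), which is 6.61-fold higher in serum.

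Krt19, a short type I keratin of simple and stratified epithelia that lacks most of the usual tail, was a less abundant transcript. Its level was 1.94, 1.46 and 2.00 TPM in TKO-2i and 6.43, 5.60 and 5.82 TPM in TKO-serum. Replicate 2 was the lowest library within each medium, and the lowest TKO-serum library was still well above the highest TKO-2i library. The log2 fold change was -1.54 (SE 0.16, adjusted p = 4.9e-05 in edgeR), with mean CPM of 7.06 ± 0.66 in serum and 2.42 ± 0.52 in 2i (SD, n = 3).

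Krt7, a type II keratin of ducts and other simple epithelia, was the lowest of the 7 in both media. It had 0.229, 0.194 and 0.232 TPM in TKO-2i and 0.812, 0.784 and 0.812 TPM in TKO-serum, which rested on 37, 26 and 36 counts and on 106, 126 and 116 counts. The TKO-serum libraries were the higher ones throughout. Its log2 fold change was -1.75 (SE 0.17, adjusted p = 3.9e-05 in edgeR), from 2.55 ± 0.19 to 0.754 ± 0.14 CPM (SD, n = 3). On the log2(TPM + 1) scale, which understates changes of genes with low TPM, the difference was -0.57. Other genes of low TPM named further on, such as Krt13, Krt16 and Ovol1, also had values of smaller size on that scale. Krt7 and Krt8 are both type II chains, and one fell where the other rose.

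Vim, the type III filament gene, was the most abundant of the 7 in every library. It had 148, 143 and 157 TPM in TKO-2i and 93.4, 96.1 and 90.6 TPM in TKO-serum. The lowest TKO-2i library was above the highest TKO-serum library. The rise was smaller than that of Krt8, with a log2 fold change of 0.71 (SE 0.09, adjusted p = 1.3e-04 in edgeR) from 128.6 ± 6.4 to 209.8 ± 23.6 CPM (SD, n = 3).

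Nes, which encodes a long type IV chain, had 10.02, 12.8 and 9.64 TPM in TKO-2i and 7.67, 8.06 and 7.79 TPM in TKO-serum. The groups did not overlap, although TKO-2i replicate 2, the library that stood apart in general, was above the other two. The log2 fold change was 0.54 (SE 0.05, adjusted p = 4.5e-05 in edgeR), from 43.0 ± 0.96 to 62.4 ± 3.3 CPM (SD, n = 3). It was the smallest change among the 7 genes.

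**Figure D1:**
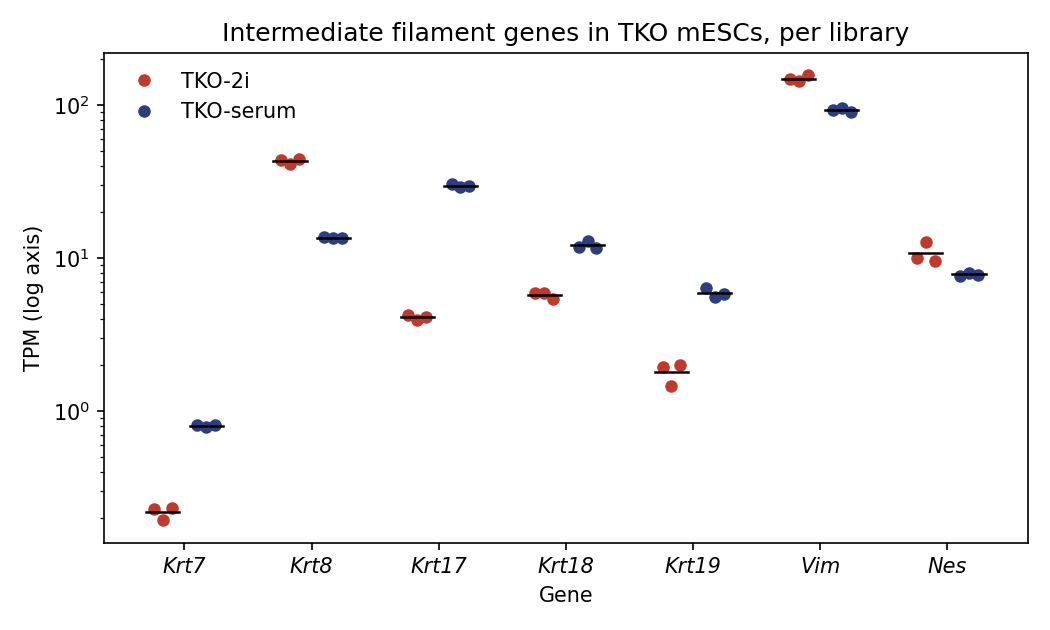
TPM of each of the 7 genes (log axis) in the 3 TKO-2i libraries (red points) and the 3 TKO-serum libraries (blue points), with the mean of each medium as a bar. Vim is highest in both media, Krt8 is higher in 2i, and Krt17 falls from a mean of 29.8 TPM in serum to 4.10 TPM in 2i.

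The order of the levels, per length, differed between the media. In TKO-serum it ran from Vim (mean 93.4 TPM) through Krt17 (29.8), Krt8 (13.7), Krt18 (12.1), Nes (7.84) and Krt19 (5.95) to Krt7 (0.802). No neighbours in this order overlapped over the 3 libraries, the closest being Krt8, whose lowest library had 13.5 TPM, and Krt18, whose highest had 12.9 TPM. In TKO-2i the order was Vim (149.5 TPM), Krt8 (43.3), Nes (10.8), Krt18 (5.75), Krt17 (4.10), Krt19 (1.80) and Krt7 (0.218), again with no overlap between neighbours. Krt17 thus stood in place 2 in serum and in place 5 in 2i.

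The summed keratin RNA overlapped between the media, while its make-up differed. The summed TPM of the keratins was 92.2, 89.3 and 90.2 in TKO-2i and 94.4, 89.5 and 91.0 in TKO-serum, and the groups overlapped (exact two-sided permutation p = 0.6). The type II sum was 44.9, 42.4 and 45.1 TPM in TKO-2i and 16.5, 16.1 and 16.2 TPM in TKO-serum, and Krt8 gave 98.0% of it in 2i and 84.0% in serum on average. The type I sum was 47.3, 46.9 and 45.1 TPM in TKO-2i and 77.9, 73.4 and 74.8 TPM in TKO-serum. Type II genes were therefore near an even share of keratin TPM in 2i and a minority in serum. These sums hold all annotated transcripts, also the retained-intron Krt42-202 of a type I gene, with means of 3.80 TPM in TKO-2i and 9.37 TPM in TKO-serum.

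As a percentage of keratin TPM, type II genes took 48.7%, 47.5% and 50.0% in TKO-2i and 17.5%, 18.0% and 17.8% in TKO-serum. The difference of 30.98 percentage points is many times the spread between libraries (SD 1.3 and 0.25; exact two-sided permutation p = 0.1, again the smallest possible). By estimated counts, which are not scaled for length, type II genes were the majority in 2i, with 58.8%, 58.6% and 61.2%, and had 25.3%, 25.6% and 25.4% in TKO-serum. With Krt7, Krt8, Krt17, Krt18 and Krt19 alone, in TPM, the type II share was 78.9% in TKO-2i and 23.2% in TKO-serum, a difference of 55.7 points. The gap between both calculations comes from the other type I keratins, above all Krt42, which alone held 57.2% of type I TPM in TKO-2i and 24.5% in TKO-serum. Krt17 held 8.84% of type I TPM in TKO-2i and 39.6% in TKO-serum.

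**Figure D2:**
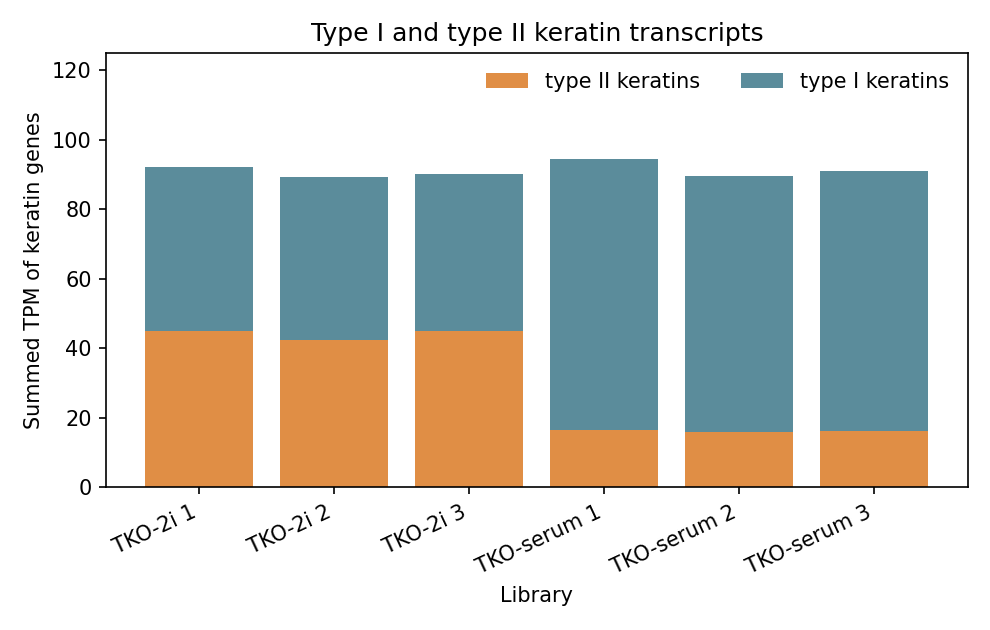
Summed TPM of type II keratin genes (orange) and type I keratin genes (blue-green) stacked for each of the 6 libraries. The total lies between 89.3 and 94.4 TPM throughout, and the type II part between 42.4 and 45.1 TPM in 2i and between 16.1 and 16.5 TPM in serum.

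Among cytoplasmic filament genes as a whole (the keratins, the type III genes Vim, Des, Gfap and Prph, and the type IV genes Nes, Nefl, Nefm, Nefh, Ina and Synm), the summed TPM was 339 ± 2.1 in TKO-2i and 333 ± 6.2 in TKO-serum (SD, n = 3; exact two-sided permutation p = 0.3). Vim took 44.1% of this sum in TKO-2i and 28.0% in TKO-serum. Krt8 took 12.7% and 4.10%, and Krt17 took 1.21% and 8.96%. The share of Nes was 3.19% in TKO-2i and 2.35% in TKO-serum, and without TKO-2i replicate 2, which had 3.79%, the difference was 0.54 in place of 0.84 percentage points. That of Krt18 was 1.70% and 3.64%. The shares of Krt19 were 0.530% and 1.79%.

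Keratins together made up 26.7% ± 0.55 of the sum in TKO-2i and 27.5% ± 1.2 in TKO-serum (SD, n = 3; exact two-sided permutation p = 0.4), with overlapping libraries. That difference of -0.83 percentage points was -0.28 without TKO-serum replicate 1 and -1.44 without TKO-serum replicate 2, and became 3.69 points when estimated counts were used in place of TPM. The same change of unit took the difference in the share of Nes, a long transcript, from 0.84 to 2.97 points, that of Krt17 from -7.75 to -5.07 points and that of Krt18 from -1.94 to -1.16 points. Shares of a sum are not independent of each other, and the larger share of Vim in 2i lowers that of the rest.

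Of the 25 other type I keratins, 8 were tested, 3 rose, 4 fell and 1 did not pass. Krt42, a type I keratin gene of the mouse, was the most abundant, with 26.7, 28.5 and 24.6 TPM in TKO-2i and 20.4, 17.01 and 18.2 TPM in TKO-serum. Its libraries in 2i were the higher ones (log2 fold change 0.90, SE 0.11, adjusted p = 1.7e-04 in edgeR; 0.50 on log2(TPM + 1)). Krt16, a keratin of stressed epidermis, had 1.62, 1.23 and 1.74 TPM in TKO-2i and 0.416, 0.399 and 0.437 TPM in TKO-serum (log2 fold change 2.00, SE 0.23, adjusted p = 1.0e-04 in edgeR). Krt13, of the suprabasal layers of mucosal epithelia, rose by 0.71 (SE 0.18, adjusted p = 7.9e-03 in edgeR).

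The 4 that fell were Krt12, Krt14, Krt23 and Krt222, named after their values were seen because their mean CPM was under 1. Krt14, the type I keratin of basal epidermis, had 5, 0 and 2 counts in TKO-2i and 18, 29 and 26 counts in TKO-serum. Krt12, of the cornea, had 8, 4 and 5 counts in TKO-2i and 46, 48 and 42 counts in TKO-serum (log2 fold change -2.92, SE 0.30). These transcripts were rare in both media beside Krt17. Krt10 did not pass, with 5.06, 4.27 and 5.58 TPM in TKO-2i and 4.98, 4.98 and 5.73 TPM in TKO-serum.

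Of the 23 other type II keratins measured, 3 were tested, none rose, Krt6a and Krt79 fell and Krt80 did not pass (adjusted p = 0.90 in edgeR). None of the 3 had a mean of 1 CPM over the libraries. Krt79 had 11, 9 and 7 counts in TKO-2i and 62, 62 and 66 counts in TKO-serum. Krt6a, a type II keratin known to pair with Krt16 and Krt17, had 0 counts in each TKO-2i library and 16, 15 and 16 counts in TKO-serum, at least 5.08-fold lower in 2i when each TKO-2i library is set at 3 counts. Krt8 was therefore the one type II keratin with a mean above 1 TPM in either medium.

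The members' genes lie on 4 chromosomes of the GRCm38 build. Krt17 (ENSMUSG00000035557, chr11:100256217-100261029, minus strand) and Krt19 (ENSMUSG00000020911, chr11:100140810-100148665, minus strand) belong to the type I cluster on chromosome 11. Krt7 (ENSMUSG00000023039, chr15:101411043-101430313, plus strand), Krt8 (ENSMUSG00000049382, chr15:101996698-102004482, minus strand) and Krt18 (ENSMUSG00000023043, chr15:102028180-102032027, plus strand) belong to the type II cluster on chromosome 15, where Krt18 is the one type I gene. Vim (ENSMUSG00000026728) is at chr2:13573927-13582826 and Nes (ENSMUSG00000004891) at chr3:87971078-87980451, both on the plus strand.

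Neighbouring keratin genes moved together in some places and in opposite directions in others. In the cluster on chromosome 11, Krt13, Krt16 and Krt42 rose, Krt12, Krt14, Krt17, Krt19, Krt23 and Krt222 fell and Krt10 did not pass. In that on chromosome 15, Krt8 rose, Krt6a, Krt7, Krt18 and Krt79 fell and Krt80 did not pass. Krt17 fell between Krt16, 7314 bases away, and Krt42, 1852 bases away, both of which rose and are read from the same strand. Krt8 and Krt18 are neighbours among the keratin genes and are read away from each other, and Krt8 rose where Krt18 fell. Between them lie 23697 bases, into which the noncoding gene Gm36026 extends. Among genes next to each other in the order of those tested, Krt12 and Krt23 both fell on chromosome 11, as did Krt19 and Krt14, and Krt7, Krt6a and Krt79 fell in a row on chromosome 15.

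**Figure D3:**
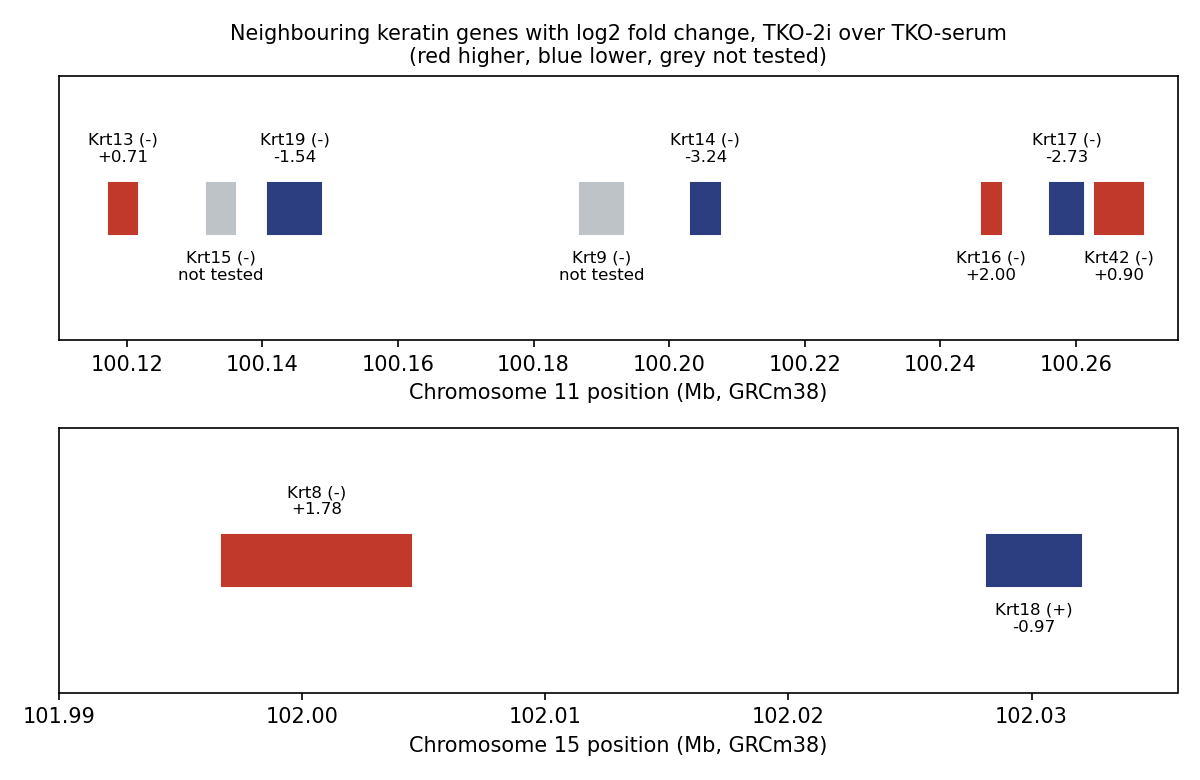
Positions of keratin genes around Krt17 and Krt19 on chromosome 11 and around Krt8 and Krt18 on chromosome 15 (x axis in Mb of GRCm38), with strand and log2 fold change of TKO-2i over TKO-serum. Krt17 (-2.73) lies between Krt16 (2.00) and Krt42 (0.90), and Krt8 (1.78) beside Krt18 (-0.97).

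Over the 1399 genes tested on chromosome 11, the log2 fold change had a median of 0.26, and 67.7% were at a higher level in 2i, so Krt17 and Krt19 fell on a chromosome whose median was above that of all tested genes. The medians of the other chromosomes of the set were near 0, at -0.08 for the 708 tested genes of chromosome 15, 0.01 for the 1388 of chromosome 2 and -0.04 for the 880 of chromosome 3. With genes of mean CPM of at least 1, the median of chromosome 3 was 0.01 and that of chromosome 2 was 0.07. The changes of Krt7, Krt8, Krt18, Vim and Nes were all larger than the median of their chromosome. The part of chromosome-wide shifts in the levels of these genes was not tested.

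Krt8, Krt17 and Krt18 each have 1 annotated transcript, so their gene values are transcript values. Of the 6 annotated transcripts of Vim, the coding Vim-201 (chr2:13573952-13582826) gave 62.3%, 74.3% and 71.1% of the TPM of the gene in TKO-2i and 77.9%, 77.9% and 77.0% in TKO-serum. Its share was lower in every TKO-2i library (means 69.2% ± 6.2 and 77.6% ± 0.49, SD, n = 3; exact two-sided permutation p = 0.1, the smallest possible). The difference of -8.36 percentage points was -4.92 without TKO-2i replicate 1 and -4.51 with estimated counts in place of TPM. Vim-203, a retained-intron transcript of the 3' part of the gene (chr2:13579369-13582478), gave 23.7% in TKO-2i and 18.6% in TKO-serum on average. The rise of Vim was seen in Vim-201 itself, from a mean of 72.5 to 103.5 TPM.

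Nes-201 (chr3:87971093-87980451) gave 91.0% ± 3.0 of Nes TPM in TKO-2i and 93.2% ± 3.9 in TKO-serum (SD, n = 3; exact two-sided permutation p = 0.4), and with single libraries left out the difference lay between -4.25 and -0.41 percentage points. Krt19-201 (chr11:100140810-100146120) gave 100%, 100% and 67.0% of Krt19 TPM in TKO-2i and 64.0%, 81.0% and 98.3% in TKO-serum, a wide spread within each medium (exact two-sided permutation p = 0.5), so the fall of Krt19 is better described for the gene than for its transcripts. The difference in that share, 7.89 percentage points, lay between -0.65 and 18.9 with single libraries left out, and it changed sign without TKO-serum replicate 1. Krt7-201 (chr15:101412402-101430313) gave 92.3% ± 7.1 in TKO-2i and 80.0% ± 14.9 in TKO-serum (SD, n = 3; exact two-sided permutation p = 0.3), the rest being the retained-intron transcript Krt7-202, and the groups overlapped. Without TKO-serum replicate 3 that difference was 4.01 points in place of 12.3.

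In Krt42, the neighbour of Krt17, both annotated transcripts moved in opposite directions. The coding Krt42-201 had 1583, 1257 and 1290 counts in TKO-2i and 525, 523 and 509 counts in TKO-serum. The retained-intron transcript Krt42-202 had 127, 141 and 142 counts in TKO-2i and 305, 322 and 330 counts in TKO-serum. The coding transcript gave 85.7% ± 2.2 of the TPM of the gene in TKO-2i and 49.4% ± 1.5 in TKO-serum (SD, n = 3; exact two-sided permutation p = 0.1). The gene sum of Krt42 therefore understates the rise of its coding transcript, whose mean went from 9.16 to 22.8 TPM.

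Several of these genes share sequence with others, and the estimated counts divide shared reads. Of the stretches of 31 bases in the Krt8 transcript, 32.3% also occur in another gene, nearly all in the pseudogene Krt8-ps, which was given 0 counts in all 6 libraries. Of those of Krt18, 11.4% are shared, most with the predicted gene Gm5200, which also had 0 counts. Krt17 shares 15.8%, most of it with Krt14, whose counts were a small fraction of those of Krt17, while Krt16 shares 51.9%, most with Gm11597, which had at most 3.51 counts in a library. Krt7 shares 2.71%, Krt19 0.517%, Vim 0.416% and Nes 0%. The rare Krt6a shares 55.1%, most with Krt6b, which had 1 count in all, and Krt14 shares 29.2%, most with Krt16, which moved the other way. The values of Krt6a, Krt8, Krt14, Krt16, Krt17 and Krt18 are to that extent uncertain, and Vim, Nes, Krt7 and Krt19 share little sequence with other genes.

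Genes that overlap the members added little RNA. The antisense gene Gm671 at the start of Krt7 had 0 counts in all libraries. Gm36026, a noncoding gene on the strand opposite to Krt8, had 4, 3 and 4 counts in TKO-2i and 0, 1 and 2 in TKO-serum, beside 3971, 3119 and 3764 counts of Krt8 in TKO-2i.

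Promoter sequences from RefSeq (GRCm38.p6), which run from 250 bases before to 50 bases after the annotated start, were at hand for 5 of the 7 genes, Krt7, Krt8, Krt18, Vim and Nes. They were searched on both strands for TATAAA, found in 13.6% of all 32851 promoters of this length, for GGGCGG (35.7%), for TGANTCA (7.81%) and for CTTTGA (16.0%), whose last 3 letters can begin TGANTCA. Vim held 1 TATAAA, which begins at -32 from its start. Krt8 held TATAAA on either strand within 3 bases of its RefSeq start, Krt7 held 4 GGGCGG and Nes 2. The RefSeq starts of Vim and Krt8 lie downstream of the annotated starts of Vim-201 and Krt8-201, so that these TATAAA matches fall within the span of the annotated transcripts. Those of Krt7 fall within the span of the annotated transcript Krt7-204, which had 0 counts. Krt18 held none of the 4 motifs, and TGANTCA and CTTTGA were found in none of the 5 windows.

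The stretches upstream of every annotated start of Krt8 and Krt18 are shown because this pair of neighbouring keratin genes moved in opposite directions. That of Nes is shown because it holds motif matches. They are the minus strand of chr15:102004483-102004592 for Krt8, the plus strand of chr15:102027966-102028179 for Krt18 and the plus strand of chr3:87970843-87971077 for Nes, written 5′ to 3′ with matches to any of the 4 motifs in capitals. In Nes the capitals mark GGGCGG as read on the other strand. A match is a description of the letters in these windows and was not tied to the levels.
Krt8: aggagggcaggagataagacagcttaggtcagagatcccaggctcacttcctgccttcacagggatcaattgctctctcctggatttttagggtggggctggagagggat
Krt18: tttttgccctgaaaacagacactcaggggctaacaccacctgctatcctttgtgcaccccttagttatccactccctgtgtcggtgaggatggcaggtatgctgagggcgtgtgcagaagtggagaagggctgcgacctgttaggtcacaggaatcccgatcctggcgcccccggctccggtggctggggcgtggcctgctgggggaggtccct
Nes: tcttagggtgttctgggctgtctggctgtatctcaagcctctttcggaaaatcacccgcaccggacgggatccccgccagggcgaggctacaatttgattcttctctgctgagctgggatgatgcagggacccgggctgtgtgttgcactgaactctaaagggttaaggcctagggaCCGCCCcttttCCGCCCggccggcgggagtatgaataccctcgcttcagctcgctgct

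By likeness of profile, the nearest of all tested protein-coding genes were found from the Euclidean distance between log2(CPM + 0.5) values centred on their mean over the 6 libraries, a distance of 0 meaning the same profile on this scale. The 0.5 added shrinks the changes of genes with low CPM, so that near genes need not have the same fold change. For Krt8 they were Gjb5, a connexin, at 0.111, Shf at 0.116 and Tradd at 0.137. Their log2 fold changes were 1.79, 1.76 and 1.84, against 1.78 for Krt8. For Krt18 the nearest were Kcnk1, a potassium channel, at 0.0517, Lysmd2 at 0.0603 and Sox3, a transcription factor of neural progenitors, at 0.0722. Mean CPM went from 16.5 in serum to 8.24 in 2i for Kcnk1 and from 8.85 to 4.41 for Lysmd2, and the log2 fold change of Sox3 was -1.07, beside -0.97 for Krt18. For Krt17 they were Ccno, a cyclin of multiciliated cells, at 0.0518, Usp17le at 0.226 and Dusp26 at 0.229. Their log2 fold changes of -3.08, -4.11 and -4.01 were larger in size than the -2.73 of Krt17. Usp17le belongs to a family of near-identical copies, and its counts are uncertain.

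For Krt7 the nearest were Lgals3, which encodes a galectin, at 0.0571, the microtubule regulator Stmn1 at 0.0771 and Utf1, a chromatin factor of pluripotent cells, at 0.0903. Their log2 fold changes of -1.28, -1.32 and -1.33 were smaller in size than the -1.75 of Krt7, whose mean in 2i was 0.754 CPM. Krt19 (-1.54) was nearest to Ppp1r14a at 0.114, Elob at 0.129 and Enho at 0.130, with log2 fold changes of -1.57, -1.40 and -2.25. Vim was nearest to Plscr1, a lipid scramblase, at 0.0860, Exoc3l2 at 0.107 and Timm22 at 0.108, and Nes to Fyco1 at 0.0598, Lactb2 at 0.0651 and Cenpi, a centromere protein, at 0.0718. The log2 fold changes of these neighbours lay between 0.65 and 0.77 for Vim (0.71) and between 0.51 and 0.57 for Nes (0.54). None of these neighbours was another of the 7 genes.

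Of 15 other intermediate filament genes, 14 were tested, 3 rose, 8 fell and 3 did not pass. The neuronal type IV genes, which like Nes are best known from the nervous system, parted. Nefl, the light neurofilament chain, had 36.3, 38.02 and 37.2 TPM in TKO-2i and 16.6, 16.97 and 16.1 TPM in TKO-serum (log2 fold change 1.28, SE 0.06), and Nefm, the medium chain, rose with it (1.74, SE 0.06). Ina, alpha-internexin, had 7.21, 8.30 and 6.74 TPM in TKO-2i and 46.5, 51.4 and 48.8 TPM in TKO-serum (log2 fold change -2.60, SE 0.05), and Nefh, the heavy chain, fell with it (-1.25, SE 0.06). Adjusted p-values of these 4 lay between 1.6e-08 and 4.9e-07 in edgeR. Nes rose with Nefl and Nefm, and by less.

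Synm (synemin), a type IV chain that like nestin assembles with vimentin or desmin, fell (log2 fold change -1.51, SE 0.12) where Vim and Nes rose. Bfsp1, the lens filament protein filensin, also fell (-1.78, SE 0.16), and Iffo1 rose (0.70, SE 0.07). The rise of Iffo1 was 0.39 in limma on log2(TPM + 1), 0.44 on log2(TPM + 0.1) and 0.54 with length-scaled counts, and it was called in each. Among the other type III genes that resemble Vim, Prph was lower in 2i (4.97, 4.83 and 3.14 TPM, against 9.02, 8.28 and 9.13 TPM in TKO-serum), and Des did not pass (5.78, 5.54 and 5.63 TPM, against 6.62, 7.83 and 7.92 TPM). The most abundant filament gene of this list was Lmnb1 of the nuclear lamina, with means of 206 and 209 TPM and overlapping libraries (adjusted p = 0.16 in edgeR). It was above Vim in both media.

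**Figure D4:**
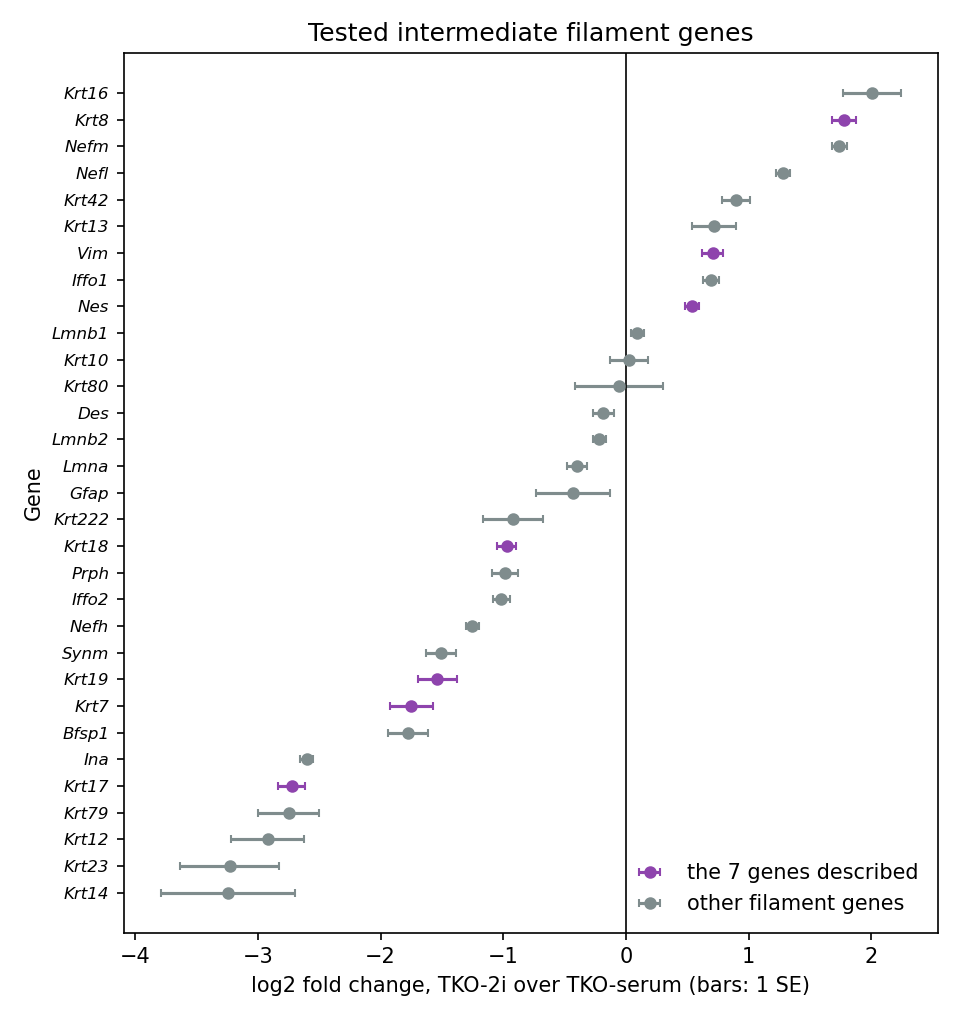
Log2 fold change of TKO-2i over TKO-serum with 1 SE (x axis) for 31 tested intermediate filament genes (y axis), the 7 described genes in purple and the others in grey; Krt6a, with 0 counts in 2i, is left out. Krt8 lies near the top at 1.78 and Krt17 near the bottom at -2.73.

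Filaments are anchored by plakins and at desmosomes. Of 17 such linkers, 15 were tested, 3 rose, 6 fell and 6 did not pass. The desmosomal cadherins Dsg2 and Dsc2 rose (log2 fold changes 0.71, SE 0.05, and 0.79, SE 0.18), as did the plaque protein Pkp3 (0.46, SE 0.10). The call of Dsc2 was lost in limma on log2(TPM + 0.1), with a difference of 0.58, and its difference was 0.26 with 1 added. Fam83h, which binds keratin filaments, had a mean CPM of 18.5 in serum and 2.90 in 2i (-2.68, SE 0.08), and the plakins Evpl (-1.33, SE 0.10), Eppk1 (-1.10, SE 0.15) and Ppl (-0.70, SE 0.11) fell. Their adjusted p-values in edgeR lay between 8.9e-08 and 4.2e-03. Dsp, the main desmosomal plakin that binds keratins such as Krt8 and Krt18, had 6.54, 9.14 and 5.78 TPM in TKO-2i and 6.15, 6.70 and 6.05 TPM in TKO-serum, with overlapping groups (adjusted p = 0.085 in edgeR).

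Of 11 transcription factors known to act on epithelial keratin genes, 4 rose, 4 fell and 3 did not pass. Tfap2a rose like Krt8 and unlike Krt7, Krt17, Krt18 and Krt19. It went from 1.37, 2.13 and 1.92 TPM in TKO-serum to 6.31, 7.55 and 6.70 TPM in TKO-2i (log2 fold change 2.02, SE 0.12). Klf4, the most abundant, rose by 0.80 (SE 0.05). Ets2 (0.56, SE 0.06) and Tfap2c (0.51, SE 0.07) rose as well. Grhl2, a factor of epithelial cells, fell (-2.07, SE 0.06), like Krt7, Krt17, Krt18 and Krt19 and unlike Krt8. The AP-1 subunits Junb (-1.52, SE 0.07) and Jun (-0.61, SE 0.08) fell as well. Adjusted p-values of those named lay between 4.6e-08 and 2.8e-04 in edgeR. Trp63, which drives keratins of stratified epithelia, had between 0.08 and 0.12 TPM in every library. Klf5, Grhl3 and Trp63 were those that did not pass. The part of any of these factors in the levels of the 7 filament genes was not tested.

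Markers of other cell types in which these genes are known to be active were also examined. Of all tested genes, 31.9% were called higher and 30.6% lower in TKO-2i. The counts of rises and falls in the lists above and below are to be read beside these shares. Krt7, Krt8, Krt18 and Krt19 are keratins of the trophectoderm. Of 10 trophectoderm markers 4 rose, 5 fell and 1 did not pass; their summed level was 39.1, 42.3 and 40.0 TPM in TKO-2i and 23.6, 24.8 and 23.3 TPM in TKO-serum, with Tead4 as the most abundant gene over both media (means 21.6 and 6.46 TPM), although Ascl2 was above it in TKO-serum (8.56 TPM). Cdx2 (3.60, 2.54 and 4.10 TPM in TKO-2i, 0.240, 0.245 and 0.0995 TPM in TKO-serum), Eomes (log2 fold change 2.81) and Tead4 (1.79) were higher in 2i like Krt8. Ascl2 (-3.37), Hand1 (-2.11) and Esx1 (-0.61) were lower like Krt7, Krt18 and Krt19. Plac1 had at most 3 counts in each TKO-2i library.

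Of 12 primitive endoderm markers, 10 were tested, 8 fell and none rose. Their summed level was 198.9, 207 and 196.6 TPM in TKO-2i and 228, 246 and 234 TPM in TKO-serum, most of it Sparc, which did not pass (log2 fold change 0.14) but did so without TKO-2i replicate 2 (0.20). Dab2 (log2 fold change -4.35, SE 0.11), Sox7 (-4.05, SE 0.22), Col4a1 (-2.95, SE 0.06) and Pdgfra (-2.50, SE 0.15) fell as Krt18 and Krt19 did, and Foxa2, Afp and Ttr had at most 3 counts in each TKO-2i library. Krt8, also made by this tissue, went the other way.

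For Vim, 12 mesenchyme markers were examined, of which 11 were tested, 3 rose, 5 fell and 3 did not pass. Their summed level was low, 21.9, 24.0 and 20.9 TPM in TKO-2i and 28.5, 30.8 and 29.3 TPM in TKO-serum, under that of Vim alone, and Zeb1 was the most abundant over both media together (means 4.67 and 4.50 TPM), although Cdh2 led in TKO-2i (4.72 TPM) and Twist1 in TKO-serum (6.75 TPM). The smooth muscle actin gene Acta2 had 0, 1 and 0 counts in TKO-2i and 159, 188 and 163 counts in TKO-serum. Zeb2 (log2 fold change -2.48), Twist1 (-1.46) and Thy1 (-0.42) fell as well, while Pdgfrb rose (1.62). Cdh2 (0.31) and Zeb1 (0.32) also rose, calls that were lost in limma on log2(TPM + 1) (0.17 and 0.04) and on log2(TPM + 0.1) (0.21 and 0.05) and, for Zeb1, with length-scaled counts (0.15). Vim was thus higher in the medium in which the sum of these markers was lower. Twist1 (means 2.20 and 6.75 TPM in TKO-2i and TKO-serum) and Acta2 (0.0059 and 2.86 TPM) weighed most in that difference. The median log2 fold change of the tested markers was -0.05.

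For Nes, 11 neural progenitor markers were examined, of which 6 were tested, 1 rose, 4 fell and 1 did not pass. Their summed level was 107.6, 107.7 and 105.7 TPM in TKO-2i and 138.6, 143.6 and 141 TPM in TKO-serum, most of it Tubb3. Pax6 (log2 fold change -2.46, SE 0.13) and Sox1 (-1.28, SE 0.10) fell and the RNA-binding protein gene Msi1 rose (1.25, SE 0.06), while Neurog2 and Dcx had at most 3 counts in every library. Nes rose against the direction of Pax6 and Sox1.

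For Krt17, 10 surface ectoderm markers were examined, of which 9 were tested, 3 rose, 4 fell and 2 did not pass. Their summed level was 238, 257 and 233 TPM in TKO-2i and 318, 344 and 332 TPM in TKO-serum, with the epithelial cadherin gene Cdh1 as the most abundant over both media (means 122 and 107.6 TPM), although Epcam was above it in TKO-serum (111.3 TPM). The splicing regulator Esrp1 went from 24.6, 27.5 and 26.0 TPM in TKO-serum to 0.684, 0.806 and 0.624 TPM in TKO-2i, and Ovol1 (log2 fold change -3.60) and Epcam (-1.50) fell as Krt17 did. Tfap2a (2.02), Cldn4 (0.31) and Cdh1 (0.28) rose. The call of Cdh1 was lost in limma on TPM (0.18 with either 1 or 0.1 added), and that of Cldn4 without TKO-2i replicate 1 (0.22), TKO-2i replicate 3 (0.28) or TKO-serum replicate 2 (0.24). The part of any of these marker lists in the levels of the 7 filament genes was not tested.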

How the data were processed

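The authors deposited, for each library, estimated counts and TPM per transcript with the transcript's length and effective length, in salmon's columns; the version and index are not given in the sources used here. The submitters' processing notes name mm10. The estimated counts deposited by the authors are not normalized. The deposited TPM are scaled for length and sum to the same value in each library. Identifiers were looked up in GENCODE M21 (136100 of 136288, 99.86%) and values summed per gene; counts were rounded. The members and gene lists were chosen with earlier results of these data known. In edgeR 4.0.16 (R 4.3.3), genes were filtered with filterByExpr, normalized by TMM and tested with glmQLFit and glmQLFTest, with medium as the only factor and Benjamini-Hochberg adjustment; the SE is the absolute log2 fold change divided by the square root of F. The biological coefficient of variation was 0.09. The fits were run on simulated data in which 200 of 18177 genes changed. There edgeR recovered 157, among them 22 of 50 with a log2 fold change of size 0.5, and made 11 false calls, against 30 in DESeq2. In the real data 11361 genes were called, so the simulation did not check the fits where most genes change. Permutation tests and transcript comparisons used Python 3.11.15 with scipy 1.17.1 and pandas 2.3.3. Named are the 7 members and, in other lists, genes with adjusted p under 0.05 and mean CPM of at least 1, at most the 4 largest rises and the 4 largest falls per list, and the most abundant marker of each list over all 6 libraries; any other gene named was chosen after its values were seen. The keratin Krt85 of the lists was not matched. Sequencing was done in pools, and which library was in which pool is not given in the sources used here. Alternatives were DESeq2 1.42.0, its size factors in edgeR, no filter, at least 10 counts in every library, limma 3.58.1 on log2 of TPM with 1 or 0.1 added, length-scaled TPM as counts, a replicate block, and each library left out.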

Additional observations from a re-analysis of the deposited data

How the results depend on the processing

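The log2 fold changes of the 7 genes kept their direction and an adjusted p under 0.05 in 98 of 98 comparisons, made of 7 genes under 14 alternatives (tests, scalings, filters, units, the block and single libraries left out), and all 7 were called under each. Over these alternatives the value ran from -2.83 to -2.59 for Krt17, from -1.84 to -0.57 for Krt7, from -1.70 to -1.32 for Krt19, from -1.06 to -0.93 for Krt18, from 0.41 to 0.57 for Nes, from 0.62 to 0.79 for Vim and from 1.59 to 1.88 for Krt8; the largest adjusted p was 0.018, for Nes. Of 901 such comparisons for 65 of the other named genes, 875 kept direction and side of the threshold. Further named genes, such as Krt79, Prph, Plac1, Des, Lmnb1, Dsp and Pou5f1, were not among these 65.

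The replicate numbers of the labels gave a partial sign of pairing, which the main fit did not model. Deviations from the group means correlated at 0.242, 0.329 and 0.014 in replicates 1, 2 and 3. Libraries 1 and 2 but not 3 matched best with their own number. With the replicate block, 12539 genes were called, against 11361 without it, and Sparc and Dppa5a, not called without it, were among them with unchanged log2 fold changes of 0.14 and -0.14. Over all alternatives these values ran from 0.03 to 0.20 for Sparc and from -0.26 to -0.03 for Dppa5a.

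With at least 10 counts in every library, 4 other type I keratins were called in place of 7, and no other type II keratin was left to test; without a filter, 5 other type II keratins were called in place of 2. The type II share of keratins differed by 30.98 percentage points, by 34.1 with estimated counts and by 55.7 with the members alone. With estimated counts, shares of filament RNA differed by 12.3 points for Vim (16.0 in TPM), 2.97 for Nes, -5.07 for Krt17, -1.16 for Krt18 and 3.69 for all keratins (-0.83 in TPM), that of Krt42-201 by 29.0 (36.3 in TPM), and the Krt8 to Krt18 ratio, whose alternatives were chosen after seeing the data, by 8.94 (6.41 in TPM). TPM divides by transcript length and counts do not. With single libraries left out, the difference in the share of Krt19-201 lay between -0.65 and 18.9 points; the cause was not tested. With genes of mean CPM of at least 1, chromosome medians were 0.07 (chromosome 2), 0.01 (3, against -0.04), 0.30 (11) and -0.02 (15). Krt10 and Krt80, which did not pass, changed sign: Krt10 had -0.02 with at least 10 counts, -0.07 and -0.08 in limma with 1 and 0.1 added and -0.06 to 0.12 with single libraries left out; Krt80 had 0.32 with length-scaled counts, 0.05 and 0.17 in limma and -0.38 to 0.15 with single libraries left out. Depth limits Krt7 and the rare keratins most, with few counts in a library.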
